A study of Homo sapiens with 6 samples.

Results

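The genes described here encode the enzymes that build and finish the linker of glycosaminoglycan chains: PXYLP1, XYLT1, XYLT2, B4GALT7, B3GALT6, B3GAT3, FAM20B, EXTL2, EXTL3 and CSGALNACT1. Members were all probe sets whose single platform gene symbol was 1 of these 10, which gave 21 of 54613 probe sets that were not controls, and 10 of 19775 genes. The list was chosen by measured values, since PXYLP1 had stood out by its lower signal in an earlier look at the same contrast of TET siRNA with non-targeting siRNA. The members' values in that contrast are therefore a description, given without p-values, and nothing is read from the members' calls counted in it.

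Expression was measured on 6 Affymetrix arrays, each hybridised with 1 sample of Flp-In T-REx 293 cells, which derive from the human embryonic kidney line HEK293. Of these samples, 3 had been transfected with siRNAs to TET1, TET2 and TET3 at once and 3 with a non-targeting pool, and both groups were collected after 96 h. All 6 samples carried a stable GFP transgene under an inducible promoter that was not induced, and each group held the same 3 clones, numbered 1 to 3. The TET proteins oxidise 5-methylcytosine in DNA, and the study asked how the transcriptome changes when all 3 are depleted. The labels give 1 knockdown sample and 1 control sample for each clone, so a difference between clones in the response to the siRNAs could not be tested. All values are MAS5 signals on a linear scale, scaled by the authors to the same trimmed mean on each array, and the number of arrays limits their precision.

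Proteoglycans carry their sulfated sugar chains on a short linker of xylose, galactose, galactose and glucuronic acid, joined to serine residues of a core protein in the secretory pathway. A phosphate on the xylose is added while the linker is being built and is removed again as it is completed. The next sugar decides whether the chain becomes heparan sulfate or chondroitin sulfate. XYLT1 and XYLT2 transfer the xylose, B4GALT7 the first galactose, B3GALT6 the second galactose and B3GAT3 the glucuronic acid. FAM20B is the kinase that phosphorylates the xylose, and PXYLP1 is the phosphatase that removes this phosphate.

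Promoter windows of these genes are described by their CG dinucleotides, the context in which most DNA methylation, and so most TET activity, occurs in human cells. Promoter sequences of 300 bases (250 before and 50 after the start of a RefSeq transcript, build GRCh38.p14) were matched for 8 of the 10 genes. Shown are PXYLP1, whose signal differed most between the groups among the tested members, XYLT2, the other gene with tested signals that did not overlap between the groups, and EXTL2, the member with the fewest CG dinucleotides of the 8. Capitals mark each CG, and the windows are chr3:141231575-141231874 on the plus strand, chr17:50345876-50346175 on the plus strand and chr1:100894793-100895092 on the minus strand.
PXYLP1: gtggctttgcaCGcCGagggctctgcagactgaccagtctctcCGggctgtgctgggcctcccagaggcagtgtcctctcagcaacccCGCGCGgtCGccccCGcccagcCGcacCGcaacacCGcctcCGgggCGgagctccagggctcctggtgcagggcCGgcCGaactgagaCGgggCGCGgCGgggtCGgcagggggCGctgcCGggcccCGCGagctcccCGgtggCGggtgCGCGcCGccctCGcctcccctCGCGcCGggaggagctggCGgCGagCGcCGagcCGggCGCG
XYLT2: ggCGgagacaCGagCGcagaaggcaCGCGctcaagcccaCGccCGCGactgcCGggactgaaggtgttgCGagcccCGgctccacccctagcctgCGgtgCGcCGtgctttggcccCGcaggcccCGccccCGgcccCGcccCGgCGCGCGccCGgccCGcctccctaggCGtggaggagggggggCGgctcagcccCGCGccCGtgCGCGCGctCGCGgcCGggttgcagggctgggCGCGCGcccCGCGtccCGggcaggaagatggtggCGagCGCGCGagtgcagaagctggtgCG
EXTL2: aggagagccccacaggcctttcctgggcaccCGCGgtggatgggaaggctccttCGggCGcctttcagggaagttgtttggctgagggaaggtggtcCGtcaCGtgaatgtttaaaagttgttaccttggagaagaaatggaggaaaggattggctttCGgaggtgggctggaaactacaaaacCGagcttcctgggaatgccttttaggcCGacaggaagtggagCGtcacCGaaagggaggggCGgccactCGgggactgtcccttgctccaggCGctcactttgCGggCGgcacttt

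The PXYLP1 window held 40 CG dinucleotides, a number reached by 13.6% of the 10069 genes with both a tested probe set and a promoter sequence. XYLT2 had 46 (reached by 5.25% of those genes) and EXTL2 had 16 (reached by 81.3%). The other 5 windows held 53 in B3GALT6, 47 in FAM20B, 36 in B4GALT7, 32 in B3GAT3 and 19 in XYLT1. The median was 38 CG dinucleotides over the 8 members, against 26 over the 10069 genes, while the ratio of observed to expected CG was 0.855 against 0.844. Their median GC content was 77.7%, against 65.3%. The motif GGGCGG, the GC box bound by Sp1, was found on either strand in 8 of 8 windows and in 70.3% of the 10069. TATAAA, the TATA box, was in 0 of 8 (5.47% of all), and CACGTG, an E-box, was in 2 of 8, B3GALT6 and EXTL2 (10.3% of all). These are matches of letters, and no methylation data were used here.

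**Figure D1:**
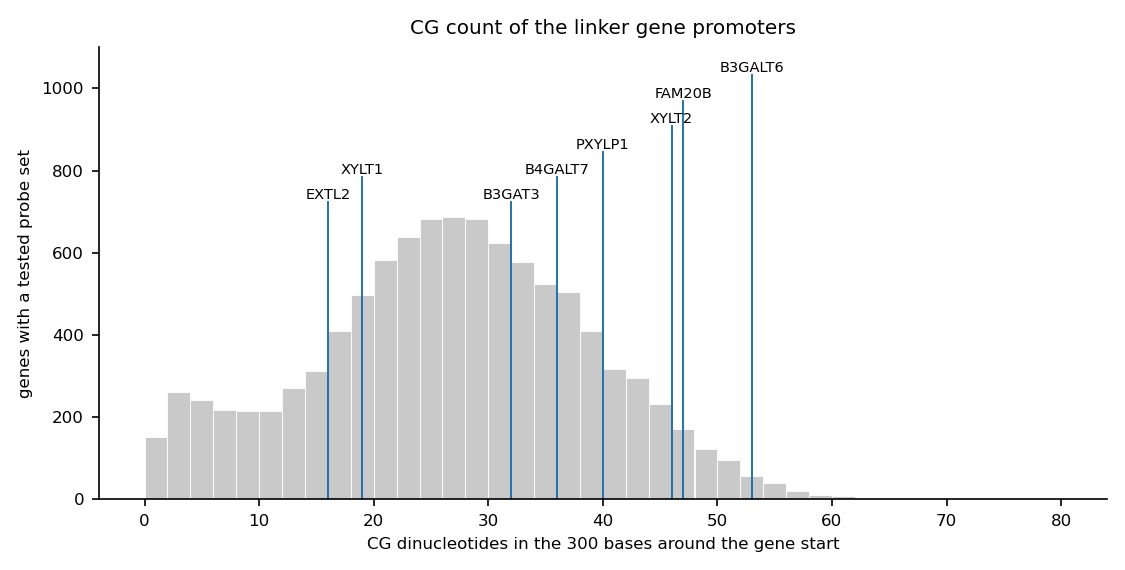
CG dinucleotides per 300-base promoter window. Grey bars count the genes with a tested probe set in bins of CG number, and blue lines mark the 8 matched linker genes, whose numbers run from 16 (EXTL2) to 53 (B3GALT6).

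The siRNA targets had lower signals under TET siRNA. The brightest TET1 probe set had a signal of 585 ± 123 under TET siRNA and 3222 ± 216 under non-targeting siRNA (SD, n = 3 each), and TET1 passed the limma test over all probe sets (adjusted p = 0.00225). TET3 averaged 545 ± 44.8 and 1276 ± 160, and TET2 380 ± 85.5 and 801 ± 78.6, under TET siRNA and non-targeting siRNA (SD, n = 3 each), and they passed only with the clone as a replicate block (limma adjusted p = 0.00206 and 0.00468). Of 8 genes named as HEK293 markers, 7 were among the brighter 50% of probe sets, LHX1 being below, and of 11 markers of other cell types 3 were (COL1A1, PECAM1 and CD53). The summed signal of those 11 was 1569 to 1753 under TET siRNA and 1732 to 2065 under non-targeting siRNA. It was lower under TET siRNA in all 3 clones. Most of this sum came from COL1A1, with 864 to 1074 under TET siRNA and 973 to 1289 under non-targeting siRNA. The sum of the 8 HEK293 markers was 63150 to 75770 and 73890 to 79240. That sum was lower under TET siRNA in clones 1 and 3 and higher in clone 2. The part of either sum in the results was not tested. In bulk RNA, fewer cells with a transcript and less of it per cell cannot be told apart.

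PXYLP1 stood at about 51% of its control level. Its brighter probe set had signals of 1572, 2001 and 1912 in clones 1, 2 and 3 under TET siRNA, against 3618, 3508 and 3597 in the same clones under non-targeting siRNA. The groups did not overlap, and the lowest control array was far above the highest knockdown array. The means were 1828 ± 226 and 3574 ± 58.2 (SD, n = 3 each), so the knockdown arrays were the more spread. The log2 difference was -0.97 (SE 0.11), which left 50.9% of the control level, a 1.97-fold lower signal. By clone, 43.5, 57.0 and 53.1% of the control signal remained in clones 1, 2 and 3. For comparison, TET1 kept 14.6, 19.9 and 19.7% in the same clones, TET3 34.8, 47.9 and 47.2%, and TET2 48.0, 39.6 and 53.9%. Clone 1 had the lowest remaining share of PXYLP1, TET1 and TET3, but not of TET2.

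The second PXYLP1 probe set did not show this difference. It was dim, at the 22.3 percentile of all probe sets by mean log2 signal and thus below the brightness filter, which kept the upper 50% for testing. It read 73.0, 9.82 and 60.7 in clones 1, 2 and 3 under TET siRNA and 37.9, 22.5 and 10.3 under non-targeting siRNA, a log2 difference of 0.77. The 2 groups overlapped, and clone 2 was lower while clones 1 and 3 were higher. The PXYLP1 difference therefore rests on 1 probe set.

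Of the 21 probe sets, 15 passed the filter on dim signals, and they stood for 9 genes, all but XYLT1. For 5 genes every probe set passed. Among the 15, 2 had all knockdown arrays below all control arrays (PXYLP1 and XYLT2), against 5.5% of all 27306 tested probe sets, and 0 had them all above, against 7.21%. In the limma fit without the clone, 0 of the 15 were called at an adjusted p of 0.05, against 0.0146% of all tested (4 probe sets). With the clone as a replicate block 1 was called, PXYLP1, against 1.03% of all tested in either direction (282 probe sets) and 0.648% lower. The same contrast led to the list, so these counts support nothing. The median log2 difference was 0.05 over the brightest tested probe sets of the 9 genes and 0.01 over those of all 12318 genes tested.

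**Figure D2:**
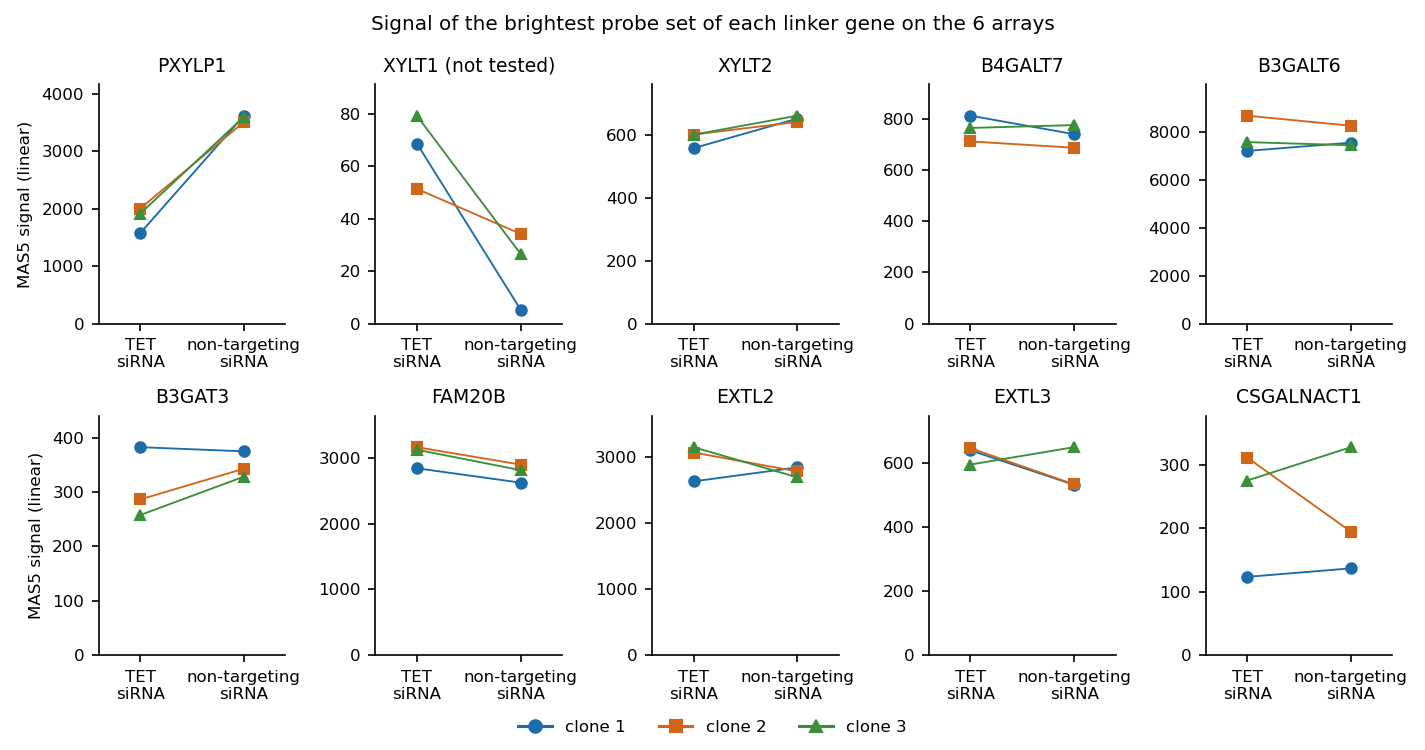
MAS5 signal of the brightest probe set of each gene, with TET siRNA on the left and non-targeting siRNA on the right of each panel and a line joining the 2 arrays of a clone. PXYLP1 lies between 1572 and 2001 under TET siRNA and between 3508 and 3618 under non-targeting siRNA. The other tested genes differ by less within each clone, by at most 0.68 on the log2 scale (CSGALNACT1 in clone 2). XYLT1, dim and not tested, is higher under TET siRNA.

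The xylosyltransferases start the linker. XYLT2 had signals of 559, 602 and 602 under TET siRNA and 653, 642.5 and 662 under non-targeting siRNA in clones 1, 2 and 3. The groups did not overlap and all 3 clones were lower, but the distance was small, with 90.0% of control left (log2 -0.15, SE 0.13). Its next probe set averaged 353 ± 63.0 and 332 ± 23.9 (SD, n = 3 each; log2 0.08, SE 0.19), with overlapping groups. The dimmest XYLT2 probe set lay below the filter at a log2 difference of 0.43. The 3 XYLT2 probe sets thus did not share a direction.

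XYLT1 had only dim probe sets, at the 26.3 and 3.4 percentiles of brightness, and was not tested. The brighter of them, of a type that can cross-hybridise, read 68.7, 51.4 and 79.3 under TET siRNA and 5.26, 34.2 and 26.5 under non-targeting siRNA. The groups did not overlap, with the knockdown arrays above, and the log2 difference was 1.96, or 0.85 when 36.1 (the 25th percentile of all signals) was added to each signal first. The dimmer one read 4.95, 42.8 and 10.5 against 2.40, 2.79 and 10.9, where the groups overlapped and clone 2 alone was far apart. The signals lie where MAS5 values are noisiest, and the size of either difference depends on how low values are treated.

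The galactosyltransferases and the glucuronosyltransferase showed small differences of both signs. B4GALT7 had 812, 712 and 765 under TET siRNA and 740, 687 and 776 under non-targeting siRNA (log2 0.05, SE 0.13). B3GALT6 had 7214, 8688 and 7584 against 7560, 8267 and 7451 (log2 0.01, SE 0.09). In both genes the groups overlapped, and clone 2 held the lowest B4GALT7 and the highest B3GALT6 signal under either treatment. At the second B3GALT6 probe set clone 2 had instead the lowest mean over both treatments, 1887 against 2413 in clone 1 and 2014 in clone 3. At the second B4GALT7 probe set clone 2 had the highest such mean, 268 against 255 in clone 1 and 195 in clone 3. Its signal there was the highest under TET siRNA but the lowest under non-targeting siRNA. B3GAT3 had 383, 286 and 258 under TET siRNA and 375, 343 and 328 under non-targeting siRNA (log2 -0.19, SE 0.20), with clones 2 and 3 lower and clone 1 nearly level. The second tested probe sets differed by 0.05 (SE 0.30) in B4GALT7, 0.21 (SE 0.16) in B3GALT6 and -0.06 (SE 0.25) in B3GAT3, all with overlapping groups. The dimmest B3GALT6 probe set was below the filter, and its clones ranged from -2.64 to 4.57 on the log2 scale.

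FAM20B, the kinase whose phosphate PXYLP1 removes, lay slightly above its control level. Its brighter probe set read 2842, 3163 and 3124 under TET siRNA and 2623, 2898 and 2813 under non-targeting siRNA in clones 1, 2 and 3. The group ranges overlapped, since clone 1 was the lowest in each group, but within each clone the knockdown array was higher, by 0.12, 0.13 and 0.15 on the log2 scale. The mean log2 difference was 0.13 (SE 0.09). Before empirical Bayes moderation, the residual SD of this probe set was 0.08 without and 0.01 with the clone in the fit. The moderated SE of the difference with the clone in the fit was 0.075. Higher signals in all 3 clones were seen in 20.5% of all tested probe sets. The other FAM20B probe set had 1974, 2579 and 2418 against 2170, 2104 and 2200 (log2 0.10, SE 0.12), with clone 1 lower.

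The 3 transferases that act on the linker itself, EXTL3, EXTL2 and CSGALNACT1, had overlapping groups at every tested probe set. EXTL3, which adds the first N-acetylglucosamine of heparan sulfate, had 640, 647 and 596 under TET siRNA and 532, 533 and 650 under non-targeting siRNA (log2 0.14, SE 0.14). Its dimmer probe set had a log2 difference of -0.19 (SE 0.33). EXTL2, which can add the same sugar to a phosphorylated linker and so end the chain there, had 2636, 3074 and 3155 against 2848, 2787 and 2697 (log2 0.09, SE 0.10). CSGALNACT1, which adds the first N-acetylgalactosamine of chondroitin sulfate, had 123, 312 and 275 against 137, 195 and 328 (log2 0.09, SE 0.42). EXTL3 was lower in clone 3 and EXTL2 in clone 1, each being higher in the other clones, and CSGALNACT1 was higher in clone 2 alone. The dimmer CSGALNACT1 probe set lay below the filter at a log2 difference of 0.56.

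**Figure D3:**
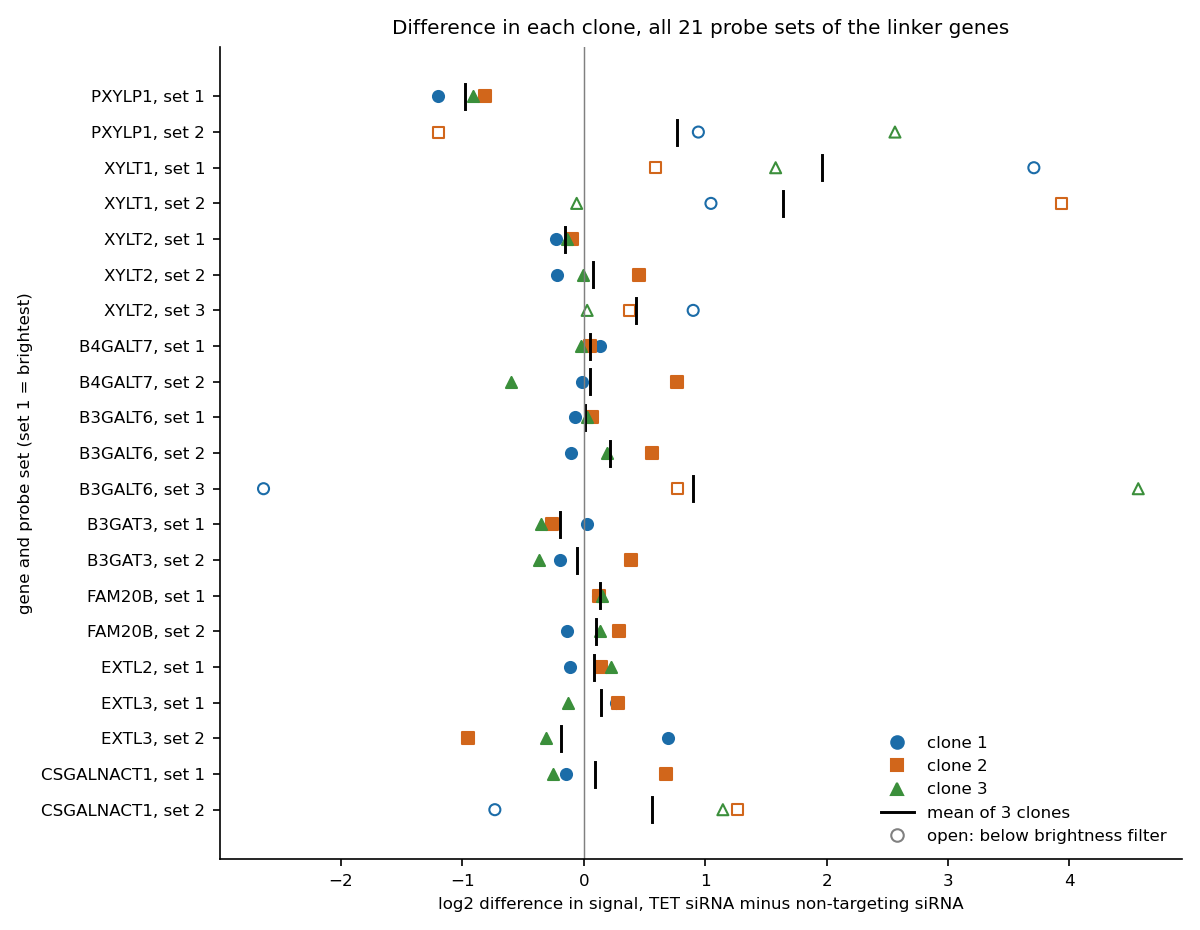
Log2 difference in signal, TET siRNA minus non-targeting siRNA, in each clone for the 21 probe sets, with filled marks for those tested, open marks for those below the brightness filter and a bar for the mean. PXYLP1 set 1 is at -1.20, -0.81 and -0.91 in clones 1, 2 and 3, and the open marks are the most scattered.

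Differences between clones do not depend on the treatment contrast and could be tested. In a limma F-test of the clone, with the treatment in the fit, 0 of the 15 tested probe sets passed an adjusted p of 0.05, against 8.27% of all tested (2259 of 27306), and 1 of the 15 had an unadjusted p under 0.05. That probe set was the brighter one of CSGALNACT1, where clone 1 was lowest under both treatments: its signals under TET siRNA and non-targeting siRNA were 123 and 137 in clone 1, 312 and 195 in clone 2, and 275 and 328 in clone 3 (limma adjusted p = 0.0563). Clone 1 lay 1.07 below the mean of the other clones on the log2 scale. Its signals were near 117, the lowest geometric mean of a tested probe set. At the dimmer CSGALNACT1 probe set, below the filter, clone 3 was lowest, with geometric means of 15, 40 and 12.9 in clones 1, 2 and 3. Without the clone 2 knockdown array CSGALNACT1 and B3GALT6 passed, 2 of 15, against 14.4% of all tested probe sets. CSGALNACT1 alone passed without the clone 2 control array, against 16.4% of all, and without both clone 2 arrays, against 16.2%. For PXYLP1 the geometric mean signals of clones 1, 2 and 3 over both treatments were 2385, 2649 and 2622, a range of 0.15 on the log2 scale (limma adjusted p = 0.613). The clone ranges of the other brightest tested probe sets were 0.06 (XYLT2) to 0.38 (B3GAT3), CSGALNACT1 aside.

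**Figure D4:**
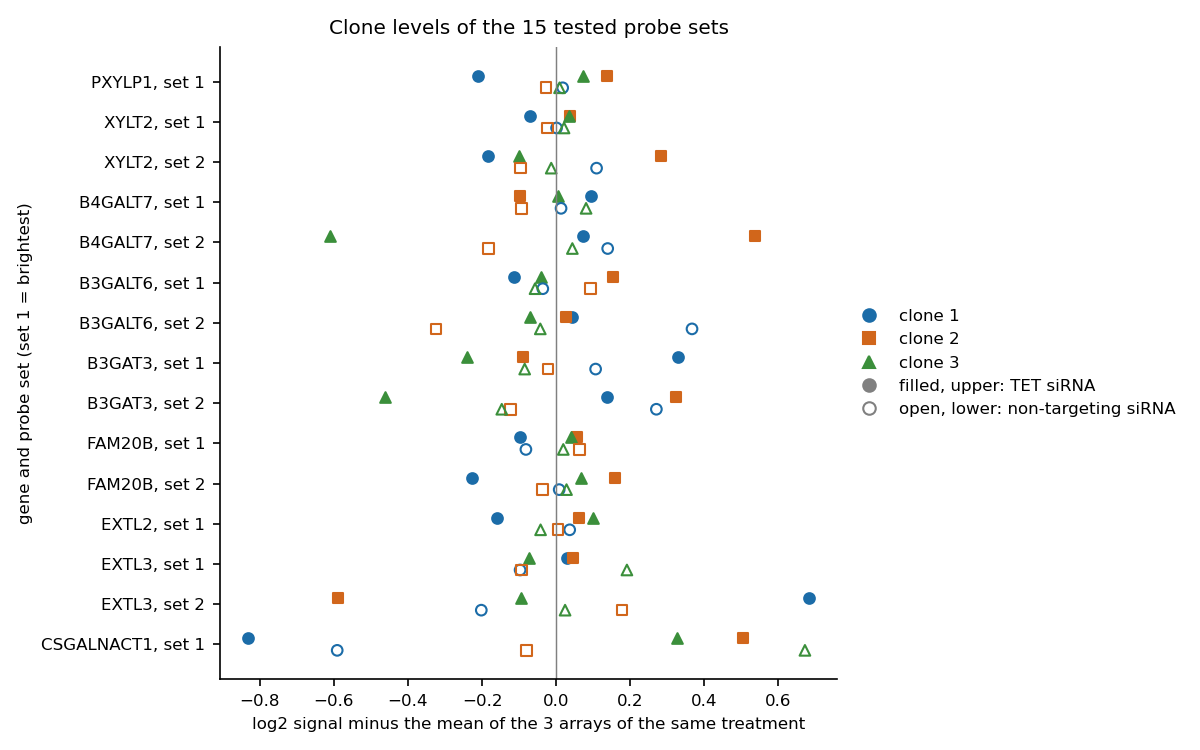
Log2 signal of each of the 15 tested probe sets relative to the mean of the 3 arrays of the same treatment, with filled marks for TET siRNA above open marks for non-targeting siRNA. Both clone 1 marks of CSGALNACT1 lie far to the left, and the control marks of PXYLP1 nearly coincide.

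Across the 6 arrays, the genes whose log2 signal ran most alike to the brighter PXYLP1 probe set were TET1, CCND2, CD9, ORC4 and ANO6, each by its brightest tested probe set, with Pearson correlations from 0.994 down to 0.992. The arrays share the treatment, which sets most of the PXYLP1 pattern, and 72 of 12317 genes had a correlation above 0.95. Among the members, XYLT2 was the most alike at 0.966, at place 43 of those genes. The remaining 7 tested members ran from 0.304 (B3GAT3) down to -0.593 (FAM20B). This order followed the treatment difference only in part. B4GALT7 (log2 difference 0.055) stood below CSGALNACT1 (0.092) and EXTL2 (0.085). With the group means subtracted, these 7 ran from 0.91 (EXTL2) down to -0.838 (B3GAT3). FAM20B was then at 0.674, and XYLT2 at 0.955. The 5 genes named first then ran from 0.967 (CD9) down to 0.813 (ANO6). These correlations are descriptions over 6 arrays.

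The other steps of glycosaminoglycan metabolism were taken as 6 lists of 115 genes, of which 107 had a probe set naming 1 gene and 84 a tested one. In the limma fit without the clone 0 of the 84 passed, against 0.0162% of all 12318 genes, and 2 had an unadjusted p under 0.05 (PTPRZ1 and CD44), 2.38% against 6.96% of all genes. With the clone as a replicate block 1 of the 84 passed, PTPRZ1. That share was near the 1.32% of all genes called in either direction (0.479% higher). In the same fit 10 of the 84 had an unadjusted p under 0.05, 11.9% against 16.1% of all genes. Of the 84, 55 had a positive difference and 29 a negative one, and the median was 0.07. Of all 12318 genes tested, 6397 (51.9%) had a positive difference and 5921 a negative one.

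PTPRZ1, a receptor tyrosine phosphatase whose extracellular part carries chondroitin sulfate, was the list member called with the block. It had signals of 769, 769 and 1213 in clones 1, 2 and 3 under TET siRNA and 489, 435 and 650.0 under non-targeting siRNA. All 3 knockdown arrays were above all control arrays, and the log2 difference was 0.79 (SE 0.225, limma adjusted p = 0.551 without and 0.0144 with the replicate block). In fits with the block chosen after seeing the data, PTPRZ1 was not called without clone 3, with no filter on dim probe sets or with plain empirical Bayes moderation. The other core proteins tested were 19 in number, and the list had a median of 0.08 with 13 of 20 positive. CD44, a cell surface receptor with a chondroitin or heparan sulfate form, named here after its values were seen, had signals of 352 ± 34.8 under TET siRNA and 497 ± 52.0 under non-targeting siRNA (SD, n = 3 each; log2 -0.50, limma adjusted p = 0.644 without and 0.176 with the replicate block). The other tested CD44 probe sets had log2 differences of -0.4, -0.081, -0.427, -0.269 and -0.24.

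No gene of the remaining 5 lists passed in either limma fit, with 0 of 64 at an unadjusted p under 0.05 without the clone (6.96% of all genes) and 6, or 9.38%, with the block (16.1% of all genes). The genes named from each have the smallest p in their list, except UGDH, UXS1, FAM20C, MINPP1 and ACP2, which were picked for their roles after their values were seen. For heparan sulfate chains (13 genes tested, median 0.04) the 2-O-sulfotransferase HS2ST1 averaged 2978 ± 132 under TET siRNA and 3403 ± 114 under non-targeting siRNA, and the polymerase EXT1 1987 ± 160 and 1684 ± 86.4 (SD, n = 3 each). Their log2 differences were -0.19 and 0.24 (limma adjusted p = 0.770 and 0.773), the other 2 tested EXT1 probe sets had 0.27 and 0.41, and the other 3 of HS2ST1 had -0.17, -0.22 and 0.31. For chondroitin and dermatan sulfate chains (13 genes, median 0.09) the sulfotransferase CHST12 had a log2 difference of 0.25 and CSGALNACT2, a relative of CSGALNACT1, of -0.16. The other tested probe set had 0.479 in CHST12 and -0.096 in CSGALNACT2. The sugar nucleotide and sulfate supply list (15 genes, median 0.08) was led by the sulfate transporter SLC26A2 at 0.19 and by SLC10A7 at 0.29, while the other 2 tested SLC26A2 probe sets had 0.003 and -0.014. UGDH and UXS1, which make the UDP-glucuronic acid and UDP-xylose used by the linker enzymes, had -0.04 and 0.05. For glycosaminoglycan breakdown (12 genes, median 0.01) the lysosomal sulfatase IDS had 0.21 and the hyaluronidase HYAL2 -0.19. The other tested IDS probe sets had 0.265, 0.216, 0.027 and 0.541. Among secretory pathway kinases and histidine acid phosphatases (11 genes, median 0.09), relatives of FAM20B and PXYLP1, the kinase PKDCC had -0.38 and FJX1 0.16, while FAM20C had -0.11 and the phosphatases MINPP1 and ACP2 had 0.15 and 0.30.

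**Figure D5:**
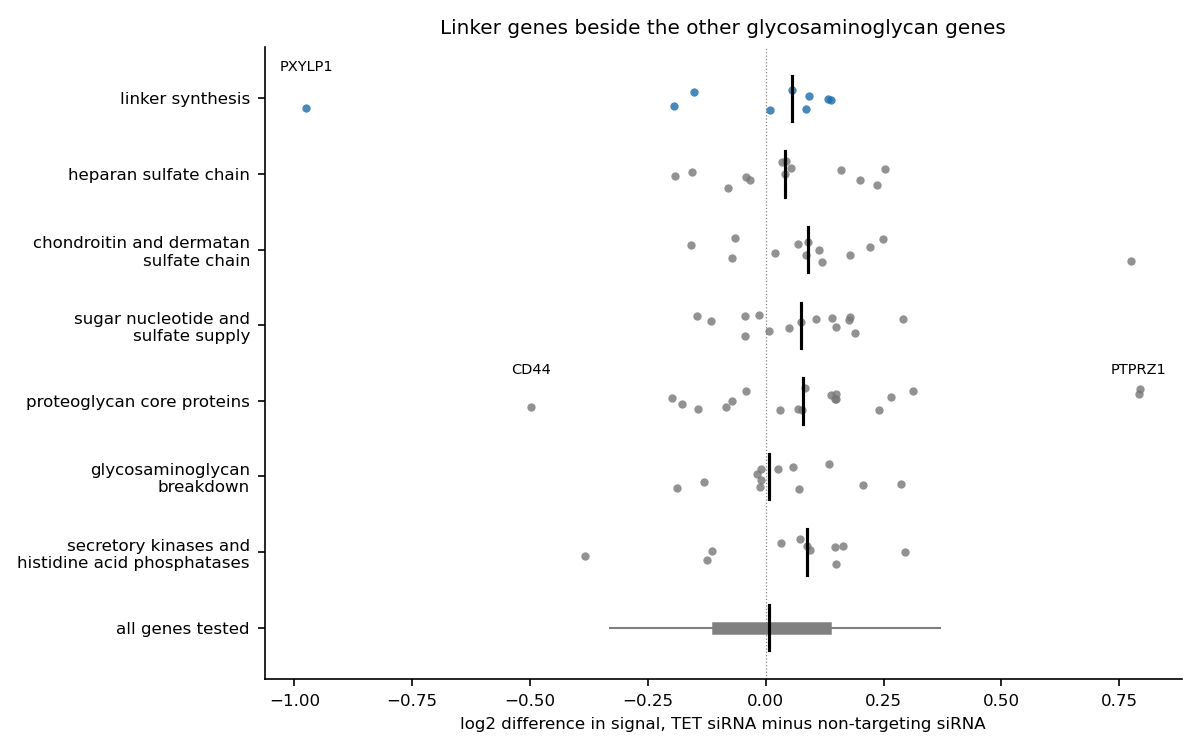
Log2 difference in signal, TET siRNA minus non-targeting siRNA, of each gene's brightest tested probe set by list, with a black bar at the median. The bottom row gives all 12318 genes tested, with the thick bar from the 25th to the 75th and the thin line from the 5th to the 95th percentile (-0.33 to 0.37), and PXYLP1 at -0.97 lies far to the left of that range.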

How the data were processed

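Values were deposited by the authors as intensities, MAS5 signals per probe set. The algorithm comes from the submitters' processing notes, without a version. All arrays had a mean of 1000 once the top and bottom 2% of signals were dropped, and the signals were used as they stood. MAS5 leaves dim signals noisy. Scanner files and detection calls were not analysed here.

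Of 54675 probe sets, 62 controls were left out. Platform annotation gave 1 gene for 41091, several for 1801 and none for 11721, and 0 probe sets with several genes held a member's symbol. Names were updated by Entrez ID from RefSeq (GRCh38.p14). Signals were taken to log2, and the 27306 probe sets in the upper 50% by mean log2 signal (geometric mean of at least 117) were tested in limma 3.58.1 (R 4.3.3) with trended, robust empirical Bayes, two-sided, with Benjamini-Hochberg adjustment over all and a threshold of 0.05. SE values come from the fit without the clone unless stated, so differences between clones enter them. With the clone in the fit, the SE was 0.09 for PXYLP1, 0.08 for FAM20B and 0.25 for CSGALNACT1, each at its brightest probe set. Steps were tested on simulated data. Figures used matplotlib 3.10.9.

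The clone number pairs the arrays, as the labels name the same clones in both groups. After subtraction of the group means, the 2 arrays of clones 1, 2 and 3 correlated at 0.493, 0.234 and 0.236. The highest correlation between arrays of different clones was 0.219, so only clone 1 stood clearly above it. Nothing says that samples of a clone were separate cultures, so p-values measure the spread between these samples. Members and lists were chosen with earlier results of these data known. Named genes were all members, the siRNA targets, in each other list the genes passing either fit or else the 2 of smallest p, and the 5 genes most alike to PXYLP1. A gene was read at its brightest tested probe set. Alternatives are given in the closing section.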

Additional observations from a re-analysis of the deposited data

How the results depend on the processing

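The log2 difference of PXYLP1 stayed between -1.06 and -0.86 over 14 alternatives, and that of XYLT2 between -0.19 and -0.12. Some of the 14 (no filter, the upper 30% of probe sets and plain empirical Bayes) cannot change a mean difference. All were read at the brightest probe set of a gene, so its other probe sets did not enter. The differences of B3GALT6 and CSGALNACT1 changed sign in 4 of the 14, with ranges of -0.07 to 0.07 and -0.20 to 0.51, and the other 6 members kept theirs. Among these, XYLT1 ranged from 0.85 with the pseudocount (1.12 without the control array of clone 1) up to 2.64, and B3GAT3 from -0.36 without the knockdown array of clone 1 up to -0.07 without that of clone 3. Without clone 3 of both groups EXTL2 was at 0.015 and EXTL3 at 0.27, without clone 1 EXTL2 was at 0.18, and without clone 2 EXTL3 was at 0.07. B4GALT7 ranged from 0.008 to 0.104 over arrays or clones left out and the other settings. The number of all tested probe sets called for the treatment was 4 (1805 at an unadjusted p under 0.05). It was 282 with the clone as a replicate block, 14 in the upper 30% of probe sets and 1 with plain empirical Bayes. Leaving out 1 array or 1 clone without the block gave 0 to 131, the highest without clone 1. Fits that combined the block with another setting were chosen after seeing the data. Of these, the block with no filter gave 70, and the block with plain empirical Bayes 0 (3355 at an unadjusted p under 0.05). The block without clone 1, 2 or 3 gave 103, 769 and 64. Of the other glycosaminoglycan genes 0 passed, and 1 with the replicate block (PTPRZ1). Leaving out 1 array or 1 clone without the block also gave 0. The block without clone 1, 2 or 3 gave 1, 2 and 0. VCAN joined PTPRZ1 with the block and without clone 2, a fit chosen after seeing the data. In the clone test the member count was 0, and 0 to 2 with arrays or clones left out. Plain empirical Bayes gave 1 clone call among all 27306 probe sets. The causes were not tested.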

Other observations

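The protein-coding genes on both sides of PXYLP1 on chromosome 3, the 2 nearest on each side that had a probe set, were looked up after the PXYLP1 values were seen. None of their tested probe sets passed in limma with or without the replicate block. ZBTB38, a zinc finger protein that binds methylated DNA, is the nearest of them. Its brightest probe set had a signal of 2213 ± 363 under TET siRNA and 1678 ± 79.5 under non-targeting siRNA (SD, n = 3 each; log2 0.39, limma adjusted p = 0.672 without and 0.0868 with the replicate block), the opposite sign to PXYLP1. Its other 3 tested probe sets had 0.28, 0.08 and -0.10. RASA2, a GTPase-activating protein for Ras, had log2 differences of -0.01, 0.05 and -0.01 at 3 tested probe sets. SLC25A36, a mitochondrial carrier, had 0.05, 0.15, 0.04, 0.07 and 0.45 in order of brightness. SPSB4 was below the brightness filter, with signals of 12.7 ± 3.36 under TET siRNA and 24.7 ± 11.2 under non-targeting siRNA.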
